A study of Mus musculus with 3 samples.

Results

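The 10 genes described here are those by which epithelial and mesenchymal states of a cell are usually told apart: the cadherin genes Cdh1 and Cdh2, the filament gene Vim, the transition transcription factor genes Zeb1, Zeb2, Snai1, Snai2 and Twist1, and the epithelial splicing regulator genes Esrp1 and Esrp2. They were chosen by name, with no measured value in the rule, but with earlier results of these data known. All 10 were found among the 55487 genes of the count table. RNA was sequenced from mpkDCT4a cells, an immortalised mouse kidney line labelled as distal convoluted tubule, the part of the nephron where the thiazide-sensitive cotransporter reabsorbs salt. The 3 libraries form 1 group of cells labelled WT, so there was no second condition to compare. The cells grew at 37 °C in medium with 2% fetal calf serum, epidermal growth factor (10 ng/ml), insulin (5 µg/ml), transferrin (5 µg/ml), dexamethasone (50 nM), triiodothyronine (1 nM), selenate and glucose (20 mM). Libraries were made from 500 ng of total RNA after removal of ribosomal RNA, with fragments of about 300 bp. Nothing in the labels ties the replicates to separate cultures, so p-values here measure only the spread between these libraries, which may be technical.

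Epithelial cells are joined to each other by E-cadherin and carry keratin filaments, whereas mesenchymal cells carry vimentin filaments and often N-cadherin. In an epithelial-mesenchymal transition, factors of the ZEB, SNAI and TWIST families bind E-box motifs at epithelial genes such as Cdh1 and repress them, and the splicing regulators ESRP1 and ESRP2, which keep epithelial splice forms, are lost. The microRNAs of the miR-200 family and the factors GRHL2 and OVOL2 act against ZEB1, so that both states hold themselves in place. In the kidney, partial forms of this switch are known from injured tubules and from tubule cells in culture.

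Total counts were 436983 in replicate 1, 482418 in replicate 2 and 443192 in replicate 3, a shallow depth. As CPM, counts scaled to a library total of 1000000, a single count corresponds to 2.07 to 2.31 CPM. Because long genes collect more counts, levels of different genes are compared as TPM, which are scaled in the same way after division by the length of all annotated exons. Each level is a mean ± SD of the 3 libraries. Detection required a mean CPM of 1 or more, which 2 counts over the 3 libraries could reach. For genes with no count anywhere, 3 counts of the summed total set an upper limit of 2.20 CPM, and all intervals and limits cover counting error only. As this limit lies above 1 CPM, a gene with no count may still exceed the detection threshold. Fold bounds against those 3 counts take the counts of the other gene as exact. Between the replicates, 5 of 12473 detected genes differed by a chi-square test of counts with Benjamini-Hochberg adjustment, and edgeR put the biological coefficient of variation at 0.0392. Of 12 markers of the distal convoluted tubule 5 were detected, against 50.6% of protein-coding genes, led by the kinase gene Wnk4 (40.0 ± 9.56 TPM). The other 7 had no count, among them the cotransporter gene Slc12a3.

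The cells expressed both cadherins and a high level of Vim together with Zeb1, and had few or no reads from the SNAI family. Of the 10 genes 7 were detected, against 50.6% of protein-coding genes, and 6 reached 10 CPM, against 40.8%. Snai1 had 1 count in all, and Snai2 and Esrp1 had none, as did 46.0% of protein-coding genes. The median of the 10 genes was 7.59 ± 2.91 TPM, against 1.51 ± 0.0642 TPM over 21974 protein-coding genes and 31.4 ± 0.346 TPM over the 11122 detected ones. From the highest to the lowest mean the order was Vim, Cdh2, Cdh1, Zeb1, Esrp2, Twist1, Zeb2, Snai1, and then Esrp1 and Snai2 at 0. Of the 9 steps in this order 4 had a ratio whose 95% counting interval leaves out 1, those from Vim down to Esrp2. The step from Cdh1 to Zeb1 was small, 1.33-fold (1.01 to 1.75), and the single libraries overlapped. Its interval included 1 without replicate 2 (1.15, 0.789 to 1.65) and without replicate 3 (1.36, 0.970 to 1.89). With the length of the longest protein-coding transcript in place of all exons Zeb1 (50.7 TPM) lay above Cdh1 (39.2 TPM). The steps from Esrp2 to Twist1 and from Twist1 to Zeb2 have intervals that hold 1, and with the longest transcripts Zeb2 (4.98 TPM) lay above Twist1 (4.83 TPM). Esrp2 had 2.80 times the level of Zeb2 per exon length (1.33 to 5.67), but 1.57 times (0.747 to 3.18) with the longest transcripts and 2.47 times (0.836 to 6.67) without replicate 2.

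**Figure D1:**
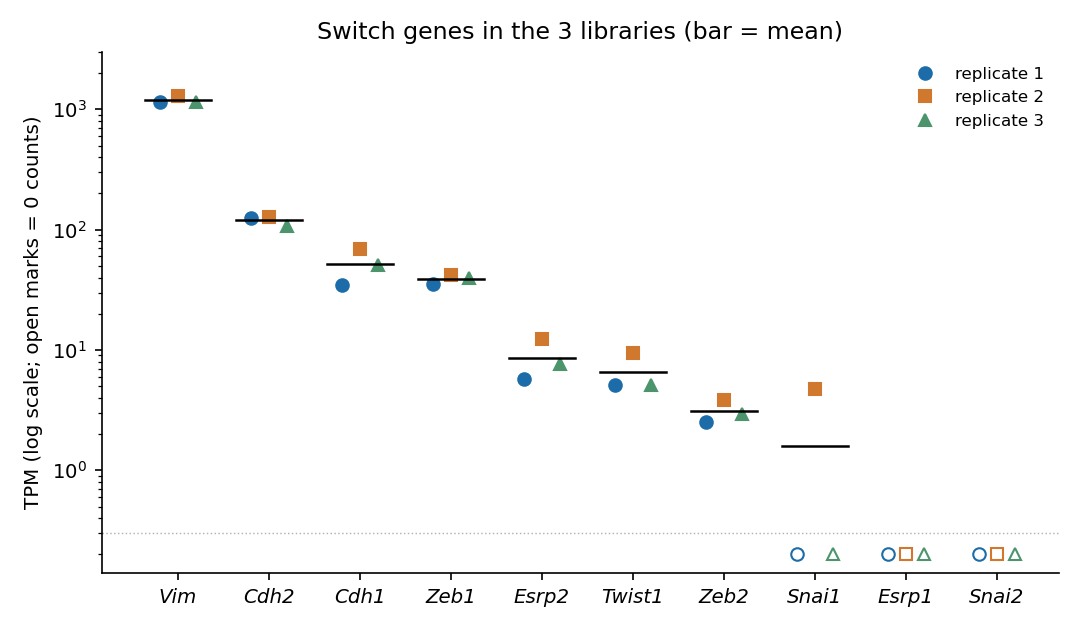
TPM (log scale) of the 10 genes in each of the 3 libraries, with the mean as a bar and open marks at the bottom for libraries with 0 counts. Vim lies near 1205 TPM, Cdh2, Cdh1 and Zeb1 between 34.7 and 127 TPM, Esrp2, Twist1 and Zeb2 at or below 12.4 TPM, and Esrp1 and Snai2 have no count.

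None of the 7 detected genes differed between replicates after adjustment over the 12473 genes tested (lowest adjusted p = 0.902, chi-square test with Benjamini-Hochberg adjustment), where 0.0401% of genes did. Few counts leave this test little power for Twist1 (4 in all), Esrp2 (14) and Zeb2 (23). Cdh1 had 19, 41 and 28 counts in replicates 1, 2 and 3, lowest in replicate 1 (unadjusted chi-square p = 0.0498). It was the only one of the 7 genes at an unadjusted p under 0.05, a side on which 4.89% of all tested genes fell. Replicate 2 had the highest TPM of each of the 8 genes with any count.

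Vim encodes vimentin, the filament protein of mesenchymal cells that is also made by dividing and injured tubule cells. It had 657, 803 and 659 counts in replicates 1, 2 and 3, or 1159, 1299.9 and 1156 TPM, and replicate 2 was the highest (ENSMUSG00000026728, GRCm38 chromosome 2, 13573927 to 13582826, plus strand). The mean of 1205 ± 82.4 TPM ranked 58 among 21974 protein-coding genes. With the length of the longest protein-coding transcript (2193 bases, against 4743 bases over all exons) the level was 1920.2 TPM. No 50-base stretch of its transcripts occurs in another annotated gene.

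Keratin filaments were present beside vimentin. Krt18, the type I keratin of simple epithelia, had 186, 194 and 191 counts, or 1075 ± 35.2 TPM. Vim had 1.12 times its level per exon length (1.02 to 1.24), but the ratio was 1.06 (0.942 to 1.19) without replicate 2 and 2.43 (2.22 to 2.67) with the length of the longest transcripts. Vim was the higher of the 2 in each library, but whether the interval left out 1 rested on replicate 2. Krt8, the partner of Krt18, was at 517 ± 35.8 TPM, although 29.7% of its 50-base stretches occur in other annotated genes. Of 18 intermediate filament genes 15 were detected, against 50.6% of protein-coding genes, with a median of 144 ± 13.2 TPM. Vim was followed by Krt18, Krt8 and Lmna, a lamin gene of the nuclear envelope (252 ± 18.0 TPM). The basal keratin gene Krt14 and the astrocyte filament gene Gfap had no count.

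Cdh1 encodes E-cadherin, the cadherin of epithelial adherens junctions, and Cdh2 encodes N-cadherin, which marks mesenchymal and neural cells and is also made by proximal tubule cells. Cdh2 had 121, 133 and 104 counts in replicates 1, 2 and 3, or 125, 127 and 107 TPM (ENSMUSG00000024304, chromosome 18, 16588877 to 16809246, minus strand). Cdh1 had 34.7, 68.8 and 50.9 TPM in the same libraries (ENSMUSG00000000303, chromosome 8, 106603351 to 106670246, plus strand). The ranges of the 2 genes did not overlap. Cdh2 averaged 120 ± 10.9 TPM and Cdh1 51.5 ± 17.0 TPM. Per exon length Cdh2 had 2.31 times the counts of Cdh1 (1.82 to 2.95), with 3.61, 1.84 and 2.11 in the single libraries. With the longest transcripts, where Cdh2 is 4843 bases in place of 8066, the ratio was 3.72 (2.94 to 4.75). Vim had 23.2 times the level of Cdh1 (18.8 to 29.1), or 48.6 times (39.3 to 60.9) with the longest transcripts, and 10.1 times that of Cdh2 (9.00 to 11.3).

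Cdh3, which encodes P-cadherin, was at 176 ± 23.5 TPM (80, 114 and 93 counts). Cdh2 had 0.678 times its level over all exons (0.579 to 0.795), but 1.13 times (0.964 to 1.32) with the longest transcripts, where Cdh2 was at 147 ± 13.3 TPM and Cdh3 at 129.9 ± 16.9 TPM. Which of the 2 cadherin genes was the highest thus depended on the length used, while Cdh1 lay below both either way. Cdh16, which encodes the kidney-specific cadherin of tubule cells, was at 115 ± 14.5 TPM (49, 52 and 60 counts). Cdh6, a cadherin of the developing nephron, was at 53.9 ± 10.4 TPM and overlapped Cdh1 in its libraries. Cdh1 had 0.294 times the level of Cdh3 (0.229 to 0.374) and 0.453 times that of Cdh16 (0.345 to 0.591), and was below both in every library. Cdh2 had 2.24 times the level of Cdh6 (1.86 to 2.69), or 3.37 times (2.81 to 4.06) with the longest transcripts. Of the summed TPM of 11 cadherin genes over all exons, Cdh3 made up 33.6 ± 2.75%, Cdh2 23.0 ± 2.38%, Cdh16 22.1 ± 3.05%, Cdh6 10.4 ± 2.54% and Cdh1 9.76 ± 2.75%. The endothelial Cdh5, the mesenchymal Cdh11, and Cdh4, Cdh15 and Cdh17 had no count. Among the catenins that tie cadherins to actin, Ctnna1 (545 ± 9.08 TPM), Ctnnb1 (462 ± 26.1 TPM) and Jup (126 ± 7.09 TPM) were expressed, while the neural catenin genes Ctnna2 and Ctnnd2 had no count. Another annotated gene holds 12.3% of the 50-base stretches of Ctnnb1. Cadherins and catenins together had 10 of 17 genes detected, against 50.6% of protein-coding genes, and a median of 21.5 ± 1.42 TPM.

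**Figure D2:**
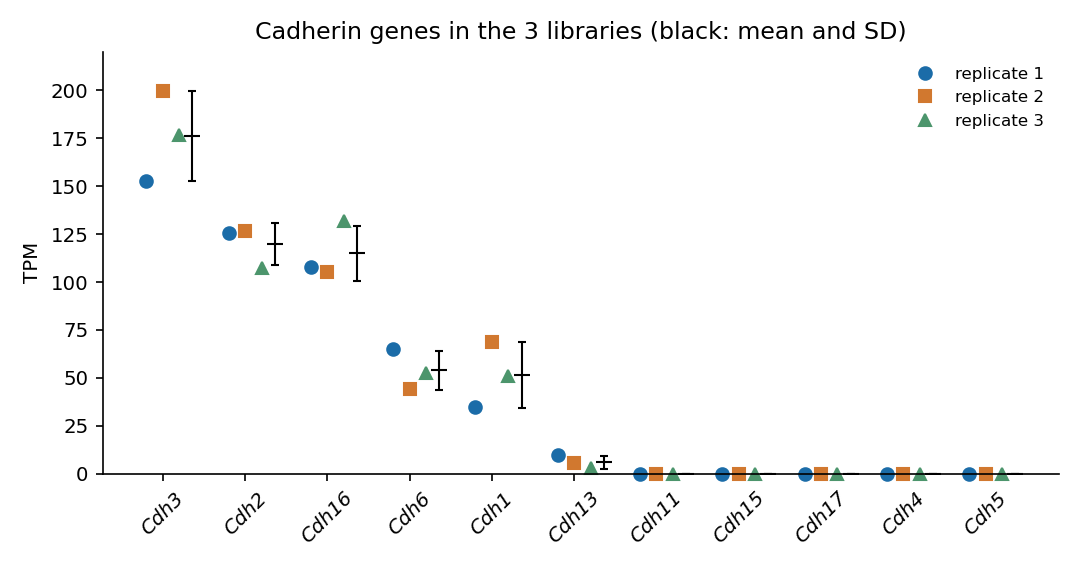
TPM of 11 cadherin genes in each library, computed over all exons, with mean and SD in black. Cdh3 lies highest at 176 TPM on this scale, though not with the longest transcripts (129.9 TPM, against 147 TPM for Cdh2), Cdh2 and Cdh16 follow near 120 and 115 TPM, Cdh6 and Cdh1 overlap, and 5 genes have no count.

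ZEB1 and ZEB2 are zinc finger and homeodomain repressors that bind E-boxes of the sequence CAGGTG. Zeb1 had 43, 56 and 49 counts in replicates 1, 2 and 3, or 35.0, 41.9 and 39.7 TPM (ENSMUSG00000024238, chromosome 18, 5591860 to 5775467, plus strand). Zeb2 had 6, 10 and 7 counts, or 2.52, 3.85 and 2.92 TPM (ENSMUSG00000026872, chromosome 2, 44983632 to 45117395, minus strand). Every library held more Zeb1 than Zeb2. The means were 38.9 ± 3.50 TPM for Zeb1 and 3.10 ± 0.684 TPM for Zeb2, a ratio of 12.5 per exon length (8.02 to 20.3), and 10.1 (6.49 to 16.5) with the longest transcripts. The exon lengths behind these values, 10266 and 19942 bases, include many alternative exons. Both genes overlap annotated transcripts on the other strand, Gm10125 at Zeb1 and Zeb2os at Zeb2, and these had no count. Zeb2 also overlaps the RNA genes Mir5129 and Gm27761, again with no count. How the counting treated strand is unknown here, so reads of these overlaps could have been left out.

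Ovol2 and Grhl2, whose products act against Zeb1 in epithelial cells, had 1 count between them. Ovol2 had no count, and Zeb1 was at least 10.2-fold higher per exon length than the 3 counts that this allows, or at least 6.31-fold without replicate 2. Grhl2 had 1 count, in replicate 2, and Zeb1 had 124 times its level, with a counting interval of 21.9 to 4937. Without replicate 2 Grhl2 had no count, and Zeb1 was at least 25.7-fold higher. The ratio was 88.1 without replicate 1 and 83.1 without replicate 3. Grhl3, Ovol1 and Elf5 had no count either, whereas the epithelial ETS factor genes Elf3 (18, 18 and 19 counts, 67.2 ± 4.52 TPM) and Ehf (3, 4 and 3 counts, 4.83 ± 0.589 TPM) were detected. Other annotated genes hold 12.2% of the 50-base stretches of Ovol2. Of 17 epithelial and nephron transcription factor genes 10 were detected, against 50.6% of protein-coding genes, with a median of 2.74 ± 1.16 TPM. Among the highest were Tfcp2l1, known from collecting duct and distal tubule cells (148 ± 5.59 TPM), Klf5 (101 ± 17.8 TPM) and the nephron factor gene Pax8 (99.4 ± 12.6 TPM).

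The microRNAs of the miR-200 family pair with the 3′ ends of ZEB messages, and their sequences are shown because Zeb1 and Zeb2 carry many matches to them. RefSeq gives these mature sequences (GRCm38.p6), with the seed, bases 2 to 8, in capitals. The first 3 share a seed, as do the next 2, and miR-205 is a separate family that also targets ZEB messages.
mmu-miR-200b-3p: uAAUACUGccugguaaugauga
mmu-miR-200c-3p: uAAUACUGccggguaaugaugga
mmu-miR-429-3p: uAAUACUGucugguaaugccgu
mmu-miR-200a-3p: uAACACUGucugguaacgaugu
mmu-miR-141-3p: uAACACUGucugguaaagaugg
mmu-miR-205-5p: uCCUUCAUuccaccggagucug

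Matches to the 7 seed bases were counted in the 3′ untranslated region of the longest protein-coding transcript of each gene in GENCODE M21. Zeb1 held 5 matches to the seed of miR-200b, miR-200c and miR-429 (CAGTATT in the message strand) and 4 to that of miR-200a and miR-141 (CAGTGTT) in 2401 bases. Zeb2 likewise held 5 and 4 in 4941 bases. Of 2806 untranslated regions with 0.8 to 1.25 times the length of that of Zeb1, 24.2% held at least 1 match to the first seed and 31.5% to the second, and of 1088 regions near the length of that of Zeb2, 38.5% and 51.2%. How many of these regions held as many as 4 or 5 matches was not counted. Zeb1 also held 1 match to the seed of miR-205 (ATGAAGG) and Zeb2 none. Snai2 and Esrp1 held 1 match to each miR-200 seed, Snai1 held 1 to the first, and Cdh1, Cdh2, Vim, Twist1 and Esrp2 held none.

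These stretches of Zeb2 show the 5 matches to the first seed and then the 4 to the second, each in order from the stop codon, with the match in capitals (GRCm38, minus strand). Those to the first seed begin 393, 458, 820, 905 and 1039 bases after the stop codon, and those to the second 209, 741, 782 and 4163 bases after it. Of the 9 matches 8 thus lie within 1039 bases of the stop codon.
chr2:44988163-44988192: actaccatacatCAGTATTttattattatt
chr2:44988098-44988127: actacagtgcatCAGTATTacgattcctca
chr2:44987736-44987765: aagcacccgtgtCAGTATTagacgactagg
chr2:44987651-44987680: cattaattttgtCAGTATTacaccaaactt
chr2:44987517-44987546: tactgtagtgtaCAGTATTatagttcttca
chr2:44988347-44988376: aaaaattttgtaCAGTGTTaaggcctaaaa
chr2:44987815-44987844: gccatccttgtaCAGTGTTcagagggtaac
chr2:44987774-44987803: ttgcaccagcttCAGTGTTaagctcaccgt
chr2:44984393-44984422: tcagaaggactgCAGTGTTtagattcatat

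A match is a description of the letters and not a measured site. The libraries were made of long RNA fragments and do not measure mature microRNAs. The genes of the miR-200 family, Mir205 and Mir203 had 0 counts, 7 of 7, which says nothing about the mature forms.

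The SNAI factor genes Snai1 and Snai2 and the TWIST factor gene Twist1 were near the limit of detection. Snai1 encodes the founding repressor of the SNAI family and had 0, 1 and 0 counts (ENSMUSG00000042821, chromosome 2, 167538195 to 167542814, plus strand). Snai2, its paralog SLUG, had no count (ENSMUSG00000022676, chromosome 16, 14705852 to 14709385, plus strand). The single count of Snai1 put it at 1.58 TPM, with a counting interval of 0.0422 to 9.29 TPM. For Snai2, with no count, the same interval reaches 4.93 TPM, and 3 counts would be 4.01 TPM. No ratio of Snai2 to Snai1 was formed, as both were at or under 3 counts. Twist1, a helix-loop-helix factor of the mesenchyme, had 1, 2 and 1 counts, or 6.56 ± 2.49 TPM (ENSMUSG00000035799, chromosome 12, 33957671 to 33959829, plus strand). Its counting interval, 1.81 to 17.0 TPM, spans the level of Zeb2.

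Zeb1 had 23.4 times the level of Snai1 per exon length, with a counting interval of 4.13 to 929 that reflects the single count of Snai1. With the longest transcripts this ratio was 41.4 (7.31 to 1644), and without replicate 2, where Snai1 had no count, Zeb1 was at least 4.84-fold higher. Snai1 had 0.251 times the level of Twist1, and the interval of 0.00510 to 2.54 includes no difference. Twist2, the paralog of Twist1, had 9, 7 and 5 counts, or 17.9 ± 5.38 TPM. Twist1 had 0.371 times its level (0.0927 to 1.10), and 0.295 times (0.0737 to 0.876) with the longest transcripts. The counts of Twist2 are uncertain, since 45.7% of its 50-base stretches also occur in other annotated genes.

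ESRP1 and ESRP2 are RNA-binding proteins that favour the epithelial splice forms of Fgfr2, Cd44, Ctnnd1 and Enah. Esrp2 had 3, 7 and 4 counts, or 5.78, 12.4 and 7.67 TPM, with replicate 2 the highest (ENSMUSG00000084128, chromosome 8, 106130319 to 106136974, minus strand). Esrp1 had no count (ENSMUSG00000040728, chromosome 4, 11331933 to 11386783, minus strand), where 3 counts would be 1.29 TPM. Against 3 counts over all libraries, Esrp2 was therefore at least 6.78-fold higher than Esrp1 per exon length, and at least 3.39-fold higher without replicate 2. These bounds leave out the counting error of Esrp2 itself, which had few counts. An exon of Esrp2 overlaps Nfatc3 on the other strand, a gene with 79, 85 and 82 counts, and 5.30% of the 50-base stretches of Esrp2 are shared. How the counting treated strand is unknown here, so reads of the overlap cannot be assigned with certainty.

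Some other regulators of splicing were well above Esrp2. Rbm47, an RNA-binding protein that promotes epithelial splicing, was at 115 ± 4.45 TPM, and Esrp2 had 0.0755 times its level (0.0408 to 0.129). Rbfox2, which favours mesenchymal exons, was at 68.8 ± 3.28 TPM and had 7.88 times the level of Esrp2 (4.59 to 14.7). Both directions held in every library. Of 20 splicing regulators 15 were detected, against 50.6% of protein-coding genes, with a median of 35.3 ± 1.54 TPM. They were led by the broadly expressed Srsf1 (398 ± 15.5 TPM), Ptbp1 (373 ± 28.3 TPM), Ptbp3 (150 ± 25.5 TPM) and Celf1 (138 ± 12.9 TPM). Rbfox1, Rbfox3 and Rbm24, which act in muscle and nerve, had no count. Of 15 genes known as targets of ESRP splicing 14 were detected, against 50.6% of protein-coding genes, with a median of 38.3 ± 7.26 TPM. The highest were Mprip (147 ± 3.18 TPM), Slk (146 ± 5.50 TPM), Cd44 (79.9 ± 6.81 TPM) and Lsr (74.3 ± 15.6 TPM, with 31.5% of its stretches shared). Counts per gene do not show which of their splice forms was made.

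**Figure D3:**
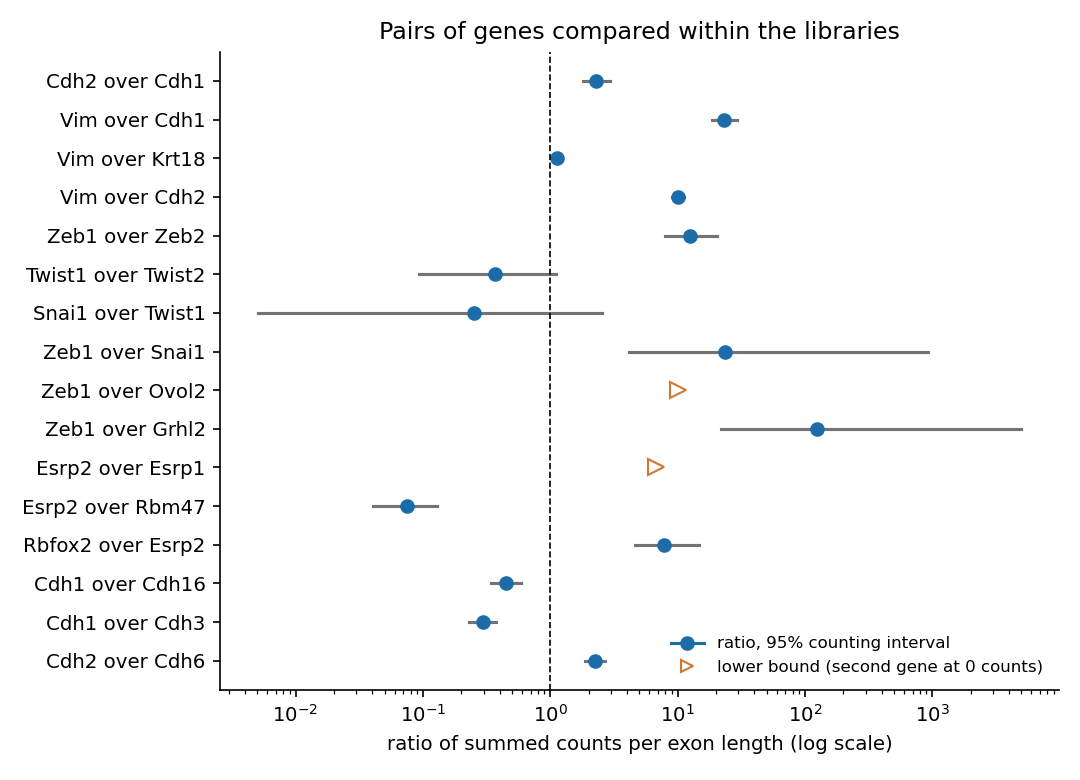
Ratios of summed counts per exon length for 16 pairs of genes (log scale), with 95% counting intervals as lines and lower bounds as triangles where the second gene has 0 counts. Intervals or bounds of 14 pairs leave out 1, the dashed line, and those of Twist1 over Twist2 and of Snai1 over Twist1 include it.

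Of the 17 pairs listed 16 could be compared, and all 16 had the same direction in all 3 libraries on the scale of log2 (CPM + 0.5) per exon length. The smallest p of the exact two-sided sign-flip permutation test is 0.25 with 3 libraries, and each of the 16 pairs was at it. The interval or bound left out 1 in 14 of the 16.

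Junction and polarity genes of epithelia, which the transition factors are known to repress, were mostly detected. Of 32 genes 26 were detected, or 81.2%, against 50.6% of protein-coding genes. At 10 CPM or more there were 19 of the 32, against 40.8% of protein-coding genes. The median was 23.4 ± 6.69 TPM. The tight junction scaffold Tjp1 (185 ± 18.6 TPM), Cdh3 and the desmosome gene Dsp (145 ± 5.45 TPM) were the highest. The claudin genes Cldn7 and Cldn8, the tricellulin relative Marveld3 and the trafficking gene Rab25 had no count. Epcam, a cell adhesion gene of most simple epithelia, had 0, 4 and 0 counts and still counted as detected.

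Of 30 mesenchymal matrix and cytoskeleton genes 20 were detected, or 66.7%, against 50.6% of protein-coding genes. At 10 CPM or more there were 15 of the 30, against 40.8% of protein-coding genes. No count was found for 7, and the median was 17.8 ± 2.55 TPM. After Vim came the integrin gene Itgb1 (1039 ± 33.4 TPM), the fibronectin gene Fn1 (452 ± 22.1 TPM; 600, 721 and 637 counts) and the matrix gene Sparc (416 ± 24.0 TPM). The mesenchymal cadherin gene Cdh11, the smooth muscle gene Cnn1 and the collagen genes Col3a1 and Col5a2 had no count. Itgb1 and Fn1 are also made by epithelial cells.

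Vim and Zeb1 are also made by fibroblasts, and markers of these and of other cell types are given as a description. Of 10 fibroblast and smooth muscle markers 4 were detected, each below 10 CPM, where 50.6% of protein-coding genes were detected. The summed level of the 10 markers was 25.6, 28.9 and 15.8 TPM in replicates 1, 2 and 3. Pdgfra, Col3a1, Lum and Postn had no count, and Col1a1 was at 4.07 ± 1.67 TPM. The highest, Tagln (13.5 ± 1.65 TPM), shares 58.3% of its 50-base stretches with other genes. Endothelial cells, which also make vimentin and Zeb1, had 2 of 9 markers detected, a summed level of 4.81, 2.84 and 5.40 TPM, and no count of Pecam1, Cdh5, Kdr or Tek. Leukocytes, which make vimentin and Zeb2, had 2 of 10 markers detected, with a summed level of 40.8, 28.7 and 50.7 TPM. Most of that level came from the receptor gene Csf1r (29.2 ± 7.57 TPM, with 14.3% of its stretches shared). Ptprc, Lyz2, Adgre1 and Cd3e had no count. In bulk RNA, few cells with much of a message and many cells with little cannot be told apart. Which cells held the Vim and Zeb1 messages was not tested.

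Other transition factors were present in part. They numbered 25, of which 15 were detected, against 50.6% of protein-coding genes, and their median was 14.0 ± 1.24 TPM. The highest were Sox4 (336 ± 30.1 TPM, with 54.1% of its stretches shared), the E protein gene Tcf3 (129 ± 11.3 TPM), whose product pairs with TWIST factors, Foxc1 (82.9 ± 4.70 TPM) and Sox9 (64.1 ± 20.6 TPM). Prrx1, Prrx2, Foxc2 and Gsc had no count. Snai3 had 1 count.

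**Figure D4:**
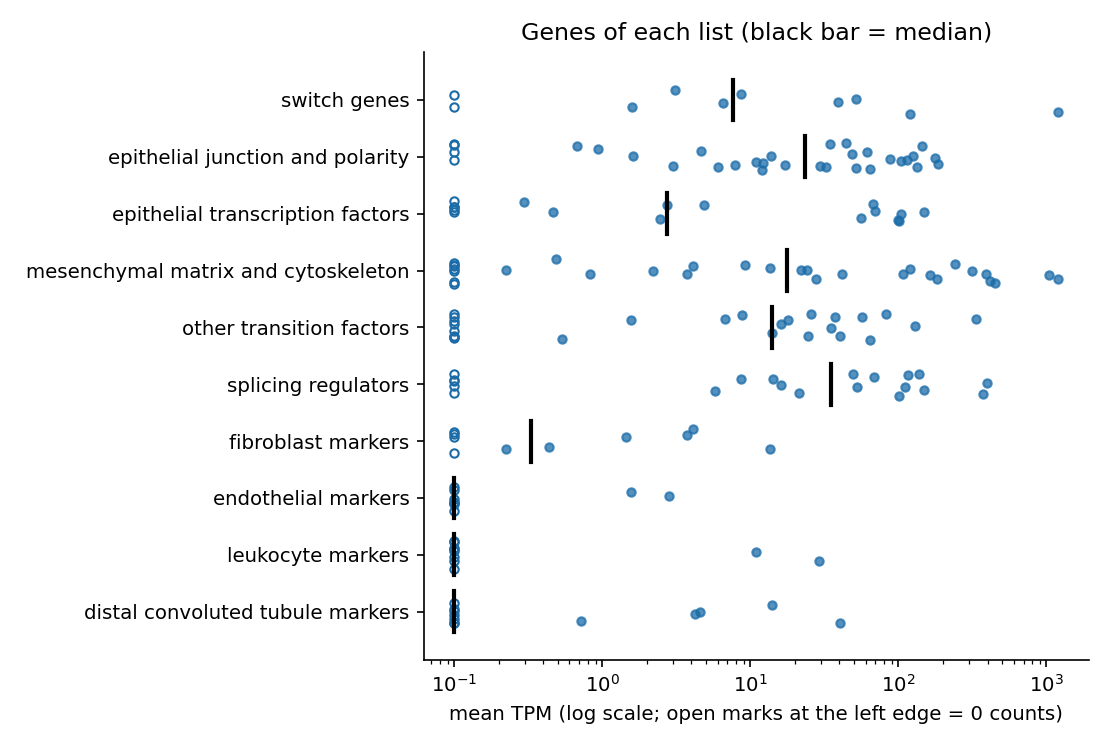
Mean TPM of every gene of 10 lists (log scale), with open marks at the left edge for genes with 0 counts and a black bar for the median. The medians of the junction and the mesenchymal list lie at 23.4 and 17.8 TPM, and most fibroblast, endothelial, leukocyte and distal convoluted tubule markers lie at or near 0.

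The protein-coding neighbours of the 10 genes are given as a description, without a test. Of 45 distinct protein-coding genes that start within 250 kb of one of them 32 were detected, or 71.1%, against 50.6% of all. Cdh3 starts 92460 bases upstream of Cdh1 and had the highest level among its 5 neighbours. Around Snai1, which had 1 count, 6 of 8 neighbours were detected, the highest being Cebpb, a transcription factor gene 150720 bases downstream (313 ± 111 TPM; 38, 58 and 78 counts). Around Esrp1, which had none, 7 of 7 neighbours were detected, led by Virma, a subunit of the RNA methylation complex, 99175 bases upstream (52.2 ± 0.599 TPM). Around Snai2 and Twist1 none of 2 and none of 1 had a count. Around Esrp2 12 of 18 were detected, around Vim 3 of 3, and around Zeb2 1 of 1. No protein-coding gene starts within 250 kb of Cdh2 or Zeb1. Esrp2 and Cdh1 lie on the same chromosome with starts 466377 bases apart.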

How the data were processed

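The authors deposited raw read counts for Ensembl genes in 3 columns, not normalised, which were assigned to replicates by the number in their names. The build mm10 and the tools STAR and HTSeq are named per the submitters' processing notes. Their versions, the annotation release, the strand setting and the handling of multiply mapped reads were not given in the sources used here. Symbols, positions and lengths came from GENCODE M21 on the same build, which matched 55227 of 55487 identifiers. The 260 others held 313 counts. Listed genes missing by symbol were matched through RefSeq synonyms (Pals1, Dub3), and Mir205hg was not matched.

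Library totals were multiplied by TMM factors from edgeR 4.0.16 (R 4.3.3). CPM and TPM are scaled to a total of 1000000, and TPM used the union of annotated exons. Each gene's counts were tested against library size by a chi-square test, which was tested on simulated data. Ratios are of summed counts per exon length with 95% exact binomial intervals. Where the lower gene had no count, 3 counts over all libraries stood in for it. The counts of the higher gene were then taken as exact, so such a bound leaves out their counting error. Log2 ratios used a pseudocount of 0.5 CPM. The share of 50-base stretches found in other genes was counted on both strands. Alternatives were DESeq2 1.42.0 size factors, library totals, other thresholds, lengths, pseudocounts and windows, and leaving out each replicate. Python 3.11.15 was used with scipy 1.17.1.

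The genes and the 16 lists were chosen with earlier results of these data known. Named are all 10 genes, both genes of each pair, the 4 highest and up to 4 countless members of each list and the highest neighbours, except some that are not reported here. Cdh17, Ctnna2, Ctnnd2, Ehf, Elf3, Epcam, Snai3 and the ratios of Esrp2 to Zeb2 and Cdh2 to Cdh3 were chosen outside that rule, with their values already seen. No gene is named for a like pattern, since replicates of 1 group have none.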

Additional observations from a re-analysis of the deposited data

How the results depend on the processing

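The number of detected genes among the 10, 7 as reported, lay between 6 and 8 under every alternative tried, and 0 of them differed between replicates under any. The count of genes differing between replicates over the whole table was 5 as reported and with other size factors or filters, and 1 to 3 with a replicate left out. The coefficient of variation was 0.0321 to 0.0434 with a replicate left out. All 64 log2 ratios under other pseudocounts or size factors kept their direction. Size factors nearly cancel in a ratio of 2 genes within 1 library, so those alternatives could hardly have changed it. Of the 16 ratios of summed counts none changed direction where it could be formed, and Snai1 over Twist1 could not be without replicate 2. With the longest transcripts Cdh1 with Zeb1, Twist1 with Zeb2 and Cdh2 with Cdh3 traded places. The ratio of Cdh2 to Cdh3, chosen after seeing the data, was 1.13 there and 1.25 with no division by length, and that of Esrp2 to Zeb2, chosen likewise, was 0.609 with no division by length. The ratio of Vim to Krt18 without replicate 2 and that of Twist1 to Twist2 with the longest transcripts (0.295) or with no division by length (0.190) changed whether the interval holds 1. Detection among neighbours was 81.2% within 100 kb and 70.9% within 500 kb. Of 16 lists 11 had a median above that of protein-coding genes in TPM and in CPM. No paired analysis was possible because there is 1 group. At this depth a gene of 1 to 4 counts, such as Snai1 or Twist1, has an interval that spans about an order of magnitude or more, and splice forms, protein and single cells were not measured.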

Other observations

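All 16 listed partners through which SNAI and ZEB proteins repress genes were detected, against 50.6% of protein-coding genes. Their median was 157 ± 8.67 TPM. They were led by the remodeller genes Chd4 (413 ± 2.20 TPM) and Smarca4 (246 ± 22.6 TPM), the Polycomb gene Suz12 (236 ± 8.23 TPM) and the DNA methyltransferase gene Dnmt1 (190 ± 16.4 TPM). Genes whose products mark SNAI1 protein for decay or keep it from decay had 14 of 16 detected, against the same 50.6%. Their median was 54.9 ± 6.08 TPM. The kinase genes Gsk3b (156 ± 13.0 TPM) and Csnk1a1 (134 ± 11.5 TPM), the ubiquitin ligase gene Fbxo11 (121 ± 32.8 TPM) and the phosphatase gene Ctdsp1 (105 ± 26.9 TPM) were the highest, and Dub3 had no count. Protein levels were not measured.

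TGF-beta signals raise ZEB and SNAI factors in many epithelia, but signalling itself was not measured. Genes of the TGF-beta and BMP pathways were all detected, 20 of 20. Over all protein-coding genes 50.6% were. The median of the 20 was 46.1 ± 6.19 TPM. Smad4 (204 ± 9.66 TPM), the receptor genes Bmpr1a (143 ± 12.3 TPM) and Tgfbr2 (139 ± 2.73 TPM) and Smad3 (108 ± 7.29 TPM) were the highest. Tgfbr2 had 136, 151 and 134 counts in replicates 1, 2 and 3.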
